A study of Mus musculus with 4 samples.

Results

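The translation initiation and elongation factors were taken as every gene whose symbol starts with Eif or Eef followed by a number. The rule gave 64 of the 23282 deposited genes, and it used no measured value. The members are the initiation factors (eIF) and elongation factors (eEF) together with the kinases, binding proteins and other regulators that carry the same names. Expression was measured in the gastrocnemius, a fast calf muscle, of male CDF1 mice labelled as postnatal day 28, which the methods give as about the age at purchase. The design crossed high-intensity treadmill running on alternate days (E) with a tumor (T), for which cells of the mouse colorectal cancer line CT26 were given through the tail vein. Each of the 4 groups had 1 library. Healthy mice gave the normal control (E−T−) and the normal exercise library (E+T−), and tumor-bearing mice gave the cancer control (E−T+) and the cancer exercise library (E+T+). Where 4 values follow each other without labels, they stand in this order. The methods describe groups of several mice and the results of the study speak of a representative mouse, so a library may come from 1 animal or from a pool.

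A ribosome starts on an mRNA when the cap-binding protein eIF4E, the scaffold eIF4G and the RNA helicase eIF4A open the message and the small subunit arrives with eIF3 and with eIF2 carrying the initiator tRNA. Cells hold translation back chiefly by 4E-binding proteins that capture eIF4E, by kinases that phosphorylate eIF2 alpha so that it blocks its exchange factor eIF2B, and by the kinase of eEF2, which slows elongation. In skeletal muscle, protein synthesis follows feeding, contraction and the mTORC1 kinase, and the 4E-binding protein 4E-BP1 is a classical substrate of mTORC1.

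The promoters of 4 genes are printed first: the elongation factor Eef2 and its kinase Eef2k, the helicase Eif4a1 and the cap-binding protein Eif4e. They are called members whose names recur throughout, and all 4 hold the letters CACGTG. Other called members with a promoter, among them Eif1, Eif3a, Eif3g, Eif2b1 and Eif2ak1, lacked these letters and are not printed. Each sequence is the 250 bases before a start site that RefSeq gives on GRCm38.p6 (1 of 3 start sites for Eef2k and 1 of 2 for Eif4e, in each case the one whose window held the E-box), on the strand of the gene, and the capitals mark the E-box CACGTG, a palindrome with the letters bound by Myc, Max and related factors.
Eef2 (chr10:81176381-81176630, + strand): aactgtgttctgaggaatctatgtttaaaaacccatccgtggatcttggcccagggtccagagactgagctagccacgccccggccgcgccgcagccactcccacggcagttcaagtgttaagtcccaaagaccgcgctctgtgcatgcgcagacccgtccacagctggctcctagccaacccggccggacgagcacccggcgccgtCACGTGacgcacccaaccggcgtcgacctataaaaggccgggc
Eif4a1 (chr11:69672424-69672673, − strand): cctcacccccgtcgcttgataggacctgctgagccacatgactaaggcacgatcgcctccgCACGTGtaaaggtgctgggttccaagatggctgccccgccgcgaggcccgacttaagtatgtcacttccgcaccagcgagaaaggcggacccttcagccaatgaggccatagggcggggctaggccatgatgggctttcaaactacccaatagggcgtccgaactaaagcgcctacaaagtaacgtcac
Eef2k (chr7:120842581-120842830, + strand): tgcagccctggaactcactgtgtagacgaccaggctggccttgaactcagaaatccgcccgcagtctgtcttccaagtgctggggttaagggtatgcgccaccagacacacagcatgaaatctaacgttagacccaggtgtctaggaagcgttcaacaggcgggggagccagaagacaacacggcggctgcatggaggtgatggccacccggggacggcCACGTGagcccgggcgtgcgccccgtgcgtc
Eif4e (chr3:138527018-138527267, + strand): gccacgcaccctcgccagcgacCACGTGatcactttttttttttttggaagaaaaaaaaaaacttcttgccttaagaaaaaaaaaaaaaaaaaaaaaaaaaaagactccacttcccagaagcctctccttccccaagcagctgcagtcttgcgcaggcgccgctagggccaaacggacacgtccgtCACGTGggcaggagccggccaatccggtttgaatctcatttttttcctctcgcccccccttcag
The first base of the E-box lay 43 bases before the start site of Eef2, 189 before that of Eif4a1 and 31 before that of Eef2k, and Eif4e had 2, at 228 and 64. Promoters were found for 50 of the 64 members, 7 of them with several start sites, and Eif4ebp1 was not among the 50. CACGTG stood in the window of at least 1 start site for 11 of these members (22.0%), against 6.86% of 27025 genes with a promoter in the same table, and in 13 of the 65 windows of members against 6.02% of all 32851 windows. The other 7 were Eif5a, Eif5a2, Eif4g1, Eif4h, Eif3k, Eif3f and Eif1b.

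The libraries held 10647474 to 13226049 reads, and the deposited values are logarithms to base 2 of the normalized read count with 1 added. A member was called when the 2 libraries of a comparison differed by at least 2-fold on this scale and at least 1 of them had a normalized read count of 4 or more. There is no replicate of any group and no test was run, and the 95% intervals given with log2 differences cover the counting error of 2 libraries only and not the spread between mice. The markers of muscle fibres had reads in all 4 libraries for 8 of 8 genes, and their share of all reads was 11.9% and 10.2% in healthy mice without and with exercise, and 6.97% and 7.45% in tumor-bearing mice. The 7 neutrophil markers summed to a normalized read count of 68.3, 149, 2631 and 1874 in the same order. Between 1 and 4 of them were without reads in each library, Csf3r in all but cancer exercise and Ngp in all but cancer control, and 6 of the 7 were called higher in the tumor without exercise. The 6 red cell markers took from 0.480% of the reads in normal exercise to 4.23% in cancer exercise, and of these only Slc4a1 was without reads, in cancer control. In a bulk library fewer cells of a type and less RNA per cell cannot be told apart.

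The members took a larger share of the reads in both tumor libraries. With 95% Clopper-Pearson intervals it was 0.979% (0.973 to 0.985) and 1.17% (1.17 to 1.18) in healthy mice without and with exercise, and 1.85% (1.84 to 1.85) and 1.52% (1.51 to 1.53) in tumor-bearing mice without and with it. The intervals do not overlap, with cancer control highest and normal control lowest. The lower summed share of muscle fibre markers and the higher level of neutrophil markers move with this difference. Of the 8 muscle fibre markers, 3 were called lower and 1 higher in the tumor without exercise. In the tumor with exercise 1 was called lower and 1 higher. Other markers also separated cancer control from normal control, with 5 of 5 fat, 5 of 5 tendon, 4 of 6 fibroblast and 3 of 4 satellite cell markers called lower and 5 of 6 keratinocyte and 2 of 6 macrophage markers called higher. Summed normalized read counts of the fat markers ran from 8767 in cancer control to 25723 in normal control, of the tendon markers from 1515 to 9500, of the fibroblast markers from 36697 to 91453 and of the satellite cell markers from 259 to 489. Keratinocyte markers summed to 562 in cancer control and to 82.6 in cancer exercise, where 5 of the 6 had no reads. The part of these markers in the result was not tested. Of the 64 members, 33 had their highest level in cancer control, 15 in cancer exercise, 9 in normal exercise and 7 in normal control. In both tumor libraries 45 members were above normal control. Neither count was made over all genes.

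Without exercise, the tumor-bearing muscle had higher levels of many members. Of 63 that met the minimum, 20 (31.7%) were called, beside 45.1% of 14818 genes. In this comparison 16 members (25.4%) were higher, beside 20.9% of all genes, and 4 (6.35%) were lower, beside 24.2%. The median log2 difference of the members was 0.70 beside −0.04 over all genes, and 48 members (76.2%) lay above 0 beside 48.6% of all genes. The share called in either direction was thus below that of all genes, while the median and the split of directions lay on the high side. The 50 members with a mean normalized read count from 156 to 7340 were also set beside the 6577 genes in that range, which was chosen after the values were seen. There 14 members were higher and 3 lower, where 16.5% and 14.5% of the genes were, and the median was 0.74 beside 0.07. In this range the share of members called in either direction was not below that of the genes.

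With exercise, the tumor comparison gave fewer calls among the members. Of 63 members 13 (20.6%) were called, beside 30.3% of 14470 genes, with 11 (17.5%) higher beside 13.9% and 2 (3.17%) lower beside 16.3%. The median was 0.35 beside −0.03, and 46 members (73.0%) lay above 0 beside 48.5% of all genes. In the same range of levels as above, 8 of 50 members were higher and 1 lower, where 8.39% and 5.98% of the genes were, with a median of 0.38 beside 0.05. This comparison shares no library with the preceding one. The members called the same way in both were 6, namely Eif4ebp1, Eif4a1, Eif3a, Eif3g and Eif2b1, all higher, and Eif2ak1, lower. The share of all genes called the same way in both was not counted, so this number has no baseline. When libraries were scaled by total reads the median of all genes in this comparison moved from −0.03 to −0.19, the median of the members from 0.35 to 0.20 and the calls from 13 to 7.

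Few members were called in the comparisons of libraries with and without exercise. In healthy mice 3 of 64 members (4.69%) were called, 1 higher and 2 lower, beside 21.5% of 14518 genes (9.44% higher and 12.1% lower), and in tumor-bearing mice 2 of 62 (3.23%) were called, 1 higher and 1 lower, beside 30.6% of 14491 genes (15.6% higher and 15.1% lower). The median was 0.14 beside −0.01 in healthy mice, with 45 of 64 members (70.3%) above 0 beside 49.2% of all genes. It was −0.14 beside 0.01 in tumor-bearing mice, with 39 of 62 members below 0. There 37.1% of the members lay above 0 beside 50.2% of all genes. Among genes in the same range of levels the shares called were small too. In healthy mice 1.90% were higher and 2.33% lower, beside 0 and 1 of 50 members, and in tumor-bearing mice 6.58% were higher and 4.64% lower, beside 1 and 0. In healthy mice 2 of the 3 calls rest on 5 or 6 reads, and a minimum of 16 left 1 call, while in tumor-bearing mice scaling by total reads gave 4 calls, 1 higher and 3 lower. Scaling by total reads moved the median of all genes in healthy mice to 0.15 and that of the members to 0.30. The comparison in tumor-bearing mice shares the cancer control library with the tumor comparison without exercise, so a value of that library enters both with opposite sign.

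**Figure D1:**
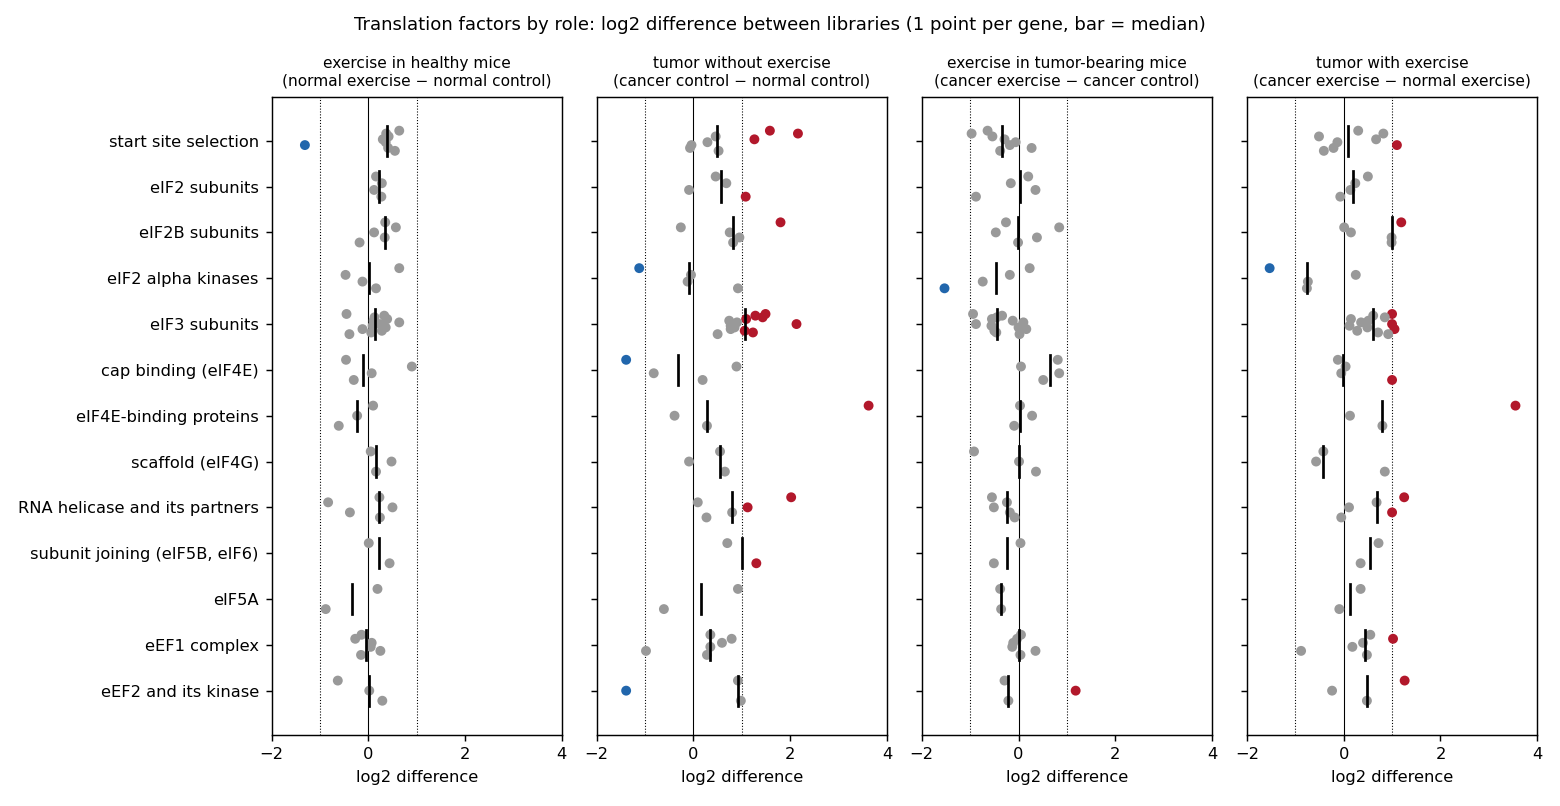
Log2 difference for the 62 members that reached a normalized read count of 16 in some library, by role on the vertical axis and in 1 panel for each comparison. Each point is 1 gene, red where it was called higher and blue where it was called lower, the black bar is the median of the role and the dotted lines mark 2-fold. In the panel of the tumor without exercise most roles lie right of 0, with Eif4ebp1 farthest at 3.62.

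The 4E-binding proteins gave the largest difference of any member, and it came from 1 of the 3 genes. Eif4ebp1, which encodes 4E-BP1 and lies at chr8:27260327-27275656 on GRCm38, had a normalized read count of 1107 without and 1188 with exercise in healthy mice, and 13596 without and 13891 with exercise in tumor-bearing mice. Both tumor libraries were thus far above both libraries without a tumor, and the libraries with and without exercise lay close together in each pair. The tumor difference was 3.62 on the log2 scale (3.53 to 3.71), or 12.3-fold, without exercise and 3.55 (3.47 to 3.63), or 11.7-fold, with exercise. The exercise difference was 0.10 (−0.01 to 0.22) in healthy and 0.03 (0.00 to 0.07) in tumor-bearing mice. Eif4ebp2, the form prominent in brain, had 545, 463, 417 and 507 and was not called in any comparison. Eif4ebp3 had 155, 101, 188 and 177, but all of its last 500 transcript bases lie in stretches of read length that another gene shares, so its reads are uncertain. Of all reads on the 3 genes, Eif4ebp1 took 61.3% (58.9 to 63.6) and 67.8% (65.8 to 69.8) in healthy mice without and with exercise, and 95.7% (95.4 to 96.1) and 95.3% (94.9 to 95.7) in tumor-bearing mice without and with it. Such a share is taken within a library of 3′ reads, which do not scale with transcript length, and it does not depend on the scaling between libraries.

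The cap-binding protein itself went the other way without exercise. Eif4e, whose promoter with 2 E-boxes is printed above, had a normalized read count of 1860 without and 1350 with exercise in healthy mice, and 707 without and 1239 with exercise in tumor-bearing mice. Cancer control was the lowest library, and the level in cancer exercise lay near that of normal exercise. Its log2 difference was −1.39 (−1.53 to −1.27) for the tumor without exercise and −0.12 (−0.23 to −0.01) for the tumor with exercise. Eif4e3, a related cap-binding protein, was also lowest in cancer control, at 554 against 981 in normal control, 1029 in normal exercise and 995 in cancer exercise, without reaching 2-fold. Eif4e2, which binds caps without eIF4G and represses translation, had 474 in normal control and 889, 879 and 911 in the other libraries. Within this set the share of Eif4e was 56.1% (54.3 to 57.9) and 41.3% (39.8 to 42.8) in healthy mice without and with exercise, and 33.0% (31.0 to 35.1) and 39.4% (37.6 to 41.2) in tumor-bearing mice without and with it. Normal control held the highest share, and the other 3 libraries stood well below it. Eif4enif1, the eIF4E transporter that carries eIF4E into the nucleus and into P-bodies, was called higher in the tumor comparison with exercise, at 112 without and 225 with the tumor, a log2 difference of 1.0 (0.69 to 1.33), which became 0.85 under scaling by total reads and 0.99 with a pseudocount of 4. Drg1, on the opposite strand, lies over the end of the Eif4enif1 transcript, and the handling of strand was not stated. The oocyte form Eif4e1b had 5 reads in normal exercise and none in the other libraries, and the interval of its call in healthy mice included 0.

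**Figure D2:**
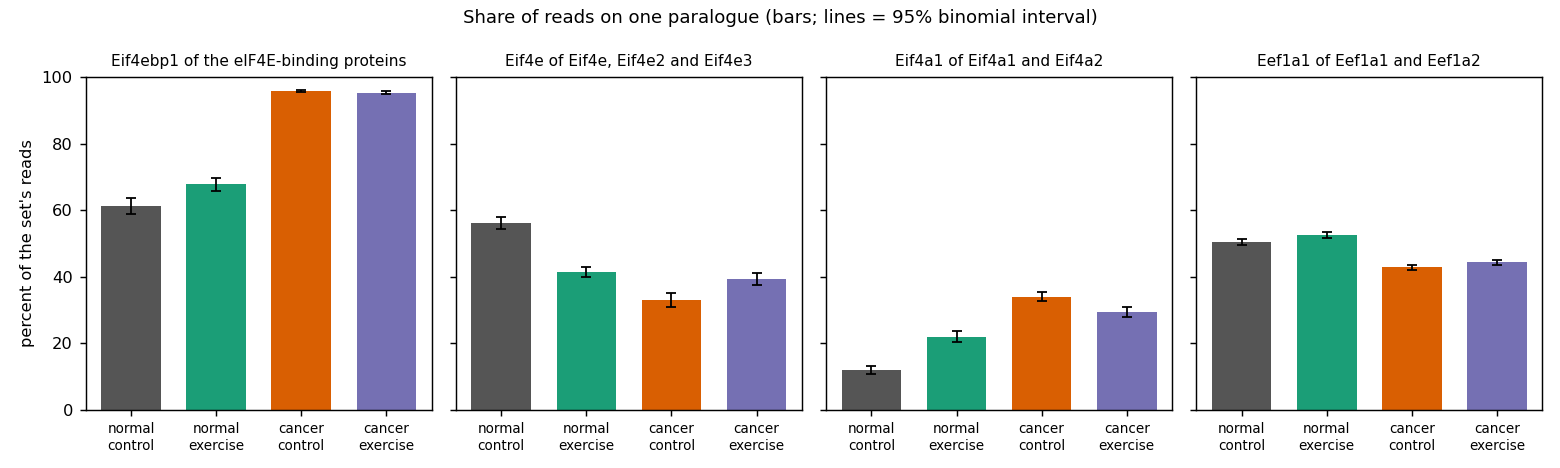
Share of the reads of a paralogue set that fell on 1 gene, in percent, for the 4 libraries. Bars are single libraries and lines are 95% Clopper-Pearson intervals. Eif4ebp1 takes 61.3% to 67.8% without a tumor and 95.3% to 95.7% with one, and Eif4e is highest in normal control at 56.1%.

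The RNA helicase eIF4A is made from a pair of near-interchangeable genes, of which Eif4a2 had the higher normalized read count in these libraries. Eif4a1 had 371 and 434 in the healthy mice against 1509 and 1032 in the tumor-bearing mice, without and with exercise, log2 differences of 2.02 (1.85 to 2.20) and 1.25 (1.09 to 1.40). Eif4a2 had 2750, 1548, 2930 and 2487 and was not called. Rfc4, on the opposite strand, lies over the end of its transcript, and the handling of strand was not stated, so the reads of Eif4a2 are uncertain. The share of Eif4a1 in the pair was 11.9% (10.7 to 13.1) and 21.9% (20.3 to 23.6) in healthy mice, and 34.0% (32.6 to 35.5) and 29.3% (27.8 to 30.9) in tumor-bearing mice, without and with exercise. The intervals of the 4 libraries do not overlap. Eif4a3, a helicase of the exon junction complex, was called higher in the tumor without exercise at 1.12 (0.99 to 1.26), with 730 in normal control and 1589 in cancer control. Eif4b, which stimulates the helicase, was called with exercise at 1.0 (0.90 to 1.11), which scaling by total reads took to 0.85. Eif4h, with a similar role, stayed between 1248 and 1504 in all libraries.

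None of the 3 scaffold genes was called. Eif4g1, the main scaffold, had 2318 and 2398 in healthy mice without and with exercise, and 3389 and 1786 in tumor-bearing mice without and with it. Eif4g2, which lacks the eIF4E-binding part and serves cap-independent starts, had 7984, 11166, 7485 and 7542, and Eif4g3 had 1811, 2024, 2838 and 3642. The share of Eif4g3 among their reads was 28.1% (27.3 to 28.9) in cancer exercise and 13.0% (12.5 to 13.5) in normal exercise, the highest and lowest of the libraries. Eif4g1 took 24.7% (24.0 to 25.5) in cancer control and 13.8% (13.2 to 14.4) in cancer exercise, and Eif4g2 took the largest share everywhere, from 54.6% to 71.6%.

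The subunits of eIF3, the large complex that brings the small ribosomal subunit to the mRNA, included 7 that were called higher in the tumor without exercise, of 12 when the loosely bound eIF3j is left aside, beside 20.9% of all genes. All 12 lay above 0, with log2 differences from 0.50 to 2.13 and a median of 1.08. With exercise the same 12 also lay above 0, from 0.12 to 1.0 with a median of 0.56, and 2 were called, beside 13.9% of all genes. Exercise itself gave a median of 0.19 in healthy mice, where 10 of 12 lay above 0, and of −0.45 in tumor-bearing mice, where 3 did, and none was called in either. Eif3g, an RNA-binding subunit, had 618 without and 732 with exercise in healthy mice, and 2713 without and 1470 with exercise in tumor-bearing mice. Eif3a, the scaffold of the complex, had 3683, 2703, 10375 and 5411. Both were highest in cancer control and second in cancer exercise. Their log2 differences were 2.13 (2.0 to 2.27) and 1.49 (1.44 to 1.55) without exercise and 1.0 (0.88 to 1.13) and 1.0 (0.94 to 1.06) with exercise, and scaling by total reads took both of the latter to 0.85.

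The other 5 of the 7 were called in the tumor without exercise alone, although the difference between the 2 tumor comparisons was not tested. Eif3c, part of the core that contacts eIF1 and eIF5, had 1213 and 3260 in the control libraries, a difference of 1.43 (1.33 to 1.53). Eif3b, the other core scaffold, differed by 1.28 (1.10 to 1.46) and Eif3l by 1.23 (1.07 to 1.39). Eif3d, which can bind the cap of some mRNAs, and Eif3k differed by 1.09 (0.94 to 1.25) and 1.06 (0.96 to 1.17). The remaining subunits Eif3e, Eif3f, Eif3h, Eif3i and Eif3m lay between 0.50 and 0.90. Eif3j2 and Eif3j1 both encode eIF3j and share most of their transcript ends, with 82.4% of the read-length stretches of Eif3j2 found in another gene. Eif3j2 had 1096, 1009, 1867 and 2089 and was called with exercise at 1.05 (0.95 to 1.15), or 0.89 when scaled by total reads. Eif3j1 had 6 reads in normal control and none in the other libraries, which makes it at least 2.62-fold lower in normal exercise and at least 1.99-fold lower in cancer control against a floor of 3 reads per library. With so few reads and a near-identical copy these calls are uncertain.

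**Figure D3:**
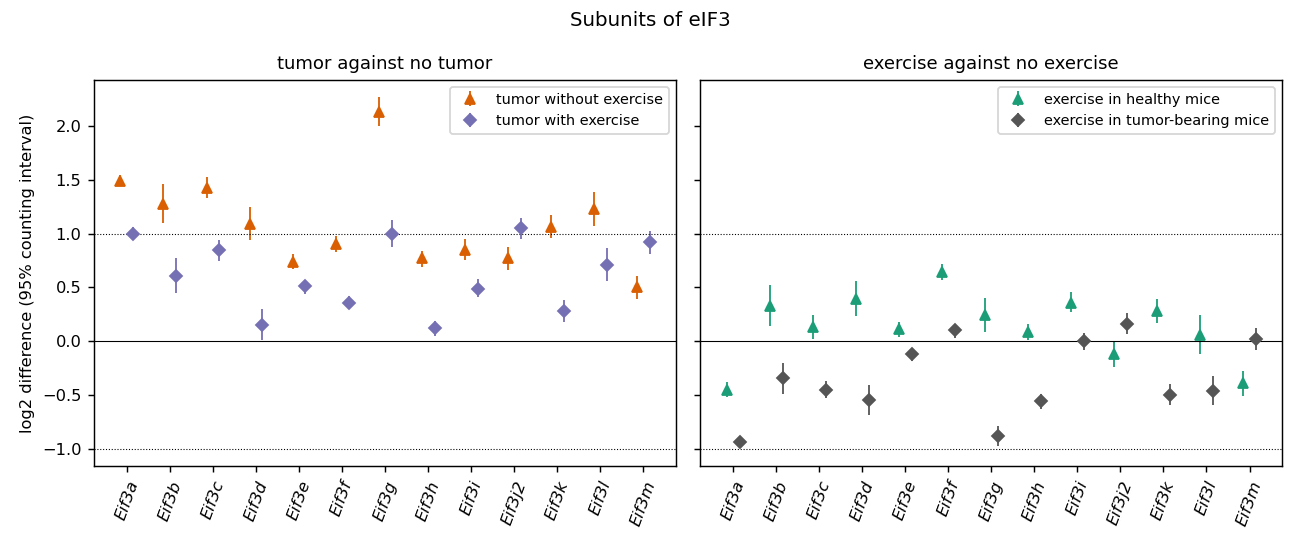
Log2 difference of 13 eIF3 subunits with 95% counting intervals, for the tumor comparisons in the left panel and the exercise comparisons in the right panel, where dotted lines mark 2-fold. In the tumor comparison without exercise every subunit shown lies above 0, with Eif3g highest at 2.13.

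Among the factors that choose the start codon, Eif1 and the eIF1A genes were higher in the tumor-bearing muscle. Eif1, which guards against wrong start codons, had 8112 and 12668 in healthy mice without and with exercise, and 24288 and 15607 in tumor-bearing mice without and with it. Its tumor difference was 1.58 (1.54 to 1.62) without exercise and 0.30 (0.27 to 0.33) with exercise, and its exercise difference was 0.64 in healthy mice and −0.64 in tumor-bearing mice. Its paralogue Eif1b stayed between 1745 and 2235, so that Eif1 took 82.3% (81.5 to 83.1) of the reads of the pair in normal control and 91.9% (91.6 to 92.3) in cancer control. Eif1a, which works with eIF1 on the scanning subunit, had 194, 251, 868 and 443, a tumor difference of 2.16 (1.93 to 2.41) without exercise. Eif1ax, the X-linked copy, followed at 1.26 (1.12 to 1.42). Eif5, which makes eIF2 hydrolyse its GTP, was not called and had 2237, 3269, 3210 and 2468. Eif2a, an eIF2-independent tRNA carrier that is not a subunit of eIF2, was low in normal exercise alone, at 82.6 against 206 in normal control, 201 in cancer control and 178 in cancer exercise. It was therefore called lower with exercise in healthy mice, at −1.31 (−1.68 to −0.97), and higher in the tumor comparison with exercise, at 1.10 (0.74 to 1.47) or 0.94 when scaled by total reads, and both calls rest on the normal exercise library.

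The subunits of eIF2 differed less. Eif2s1, the alpha subunit that the stress kinases phosphorylate, had 505 without and 564 with exercise in healthy mice, and 696 without and 800 with exercise in tumor-bearing mice and was not called. Eif2s2, the beta subunit, lay between 11028 and 17632. The gamma subunit has an X-linked and a Y-linked copy, and Eif2s3y was called higher in the tumor without exercise at 1.08 (0.83 to 1.33), with 213 and 256 in healthy mice without and with exercise, and 450 and 245 in tumor-bearing mice without and with it. Eif2s3x had 404, 439, 380 and 484, so its share of the pair was 45.8% (42.3 to 49.4) in cancer control and 63.1% to 66.4% in the other libraries. Cancer control was thus the 1 library that stood apart.

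Of the exchange factor eIF2B, which recharges eIF2 with GTP, 1 of 5 subunits was called higher in each tumor comparison. Of all genes 20.9% were called higher without exercise and 13.9% with exercise, so this count is near the share of all genes. Eif2b1, the alpha subunit through which phosphorylated eIF2 is sensed, had 251 without and 321 with exercise in healthy mice, and 877 without and 734 with exercise in tumor-bearing mice. Both tumor libraries stood above both others, with log2 differences of 1.80 (1.59 to 2.02) without exercise and 1.19 (1.01 to 1.38) with exercise. The catalytic subunit Eif2b5 had 488, 431, 863 and 855, which is 0.82 (0.66 to 0.99) and 0.99 (0.83 to 1.15), just short of the 2-fold line in the latter. Eif2b4 lay at 0.95 and 0.99 in the tumor comparisons, Eif2b3 at 0.75 and 0.15 and Eif2b2 at −0.26 and 0.01.

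The kinases of eIF2 alpha did not move in a common direction. Eif2ak1, the heme-regulated kinase HRI that is best known from red cell precursors, had 1430 and 2228 in healthy mice without and with exercise, and 660 and 773 in tumor-bearing mice without and with it. Both tumor libraries were below both others, by −1.12 (−1.26 to −0.98) without exercise and −1.53 (−1.65 to −1.41) with exercise. The end of its transcript overlaps that of Aimp2, a scaffold of the tRNA synthetase complex on the opposite strand, and the handling of strand was not stated. Aimp2 had 3696, 6277, 743 and 1689, in the same order from normal exercise down to cancer control, and without strand the reads of the pair cannot be told apart. The red cell markers had their highest share in cancer exercise, where Eif2ak1 was low, and in normal exercise, where Eif2ak1 was high, their lowest, and their part was not tested. Eif2ak4, the amino acid sensor GCN2, had 61.7, 68.9, 118 and 40.1 and was called lower with exercise in tumor-bearing mice at −1.53 (−2.13 to −1.01). Eif2ak2, the double-stranded RNA sensor PKR, had 52.1, 37.2, 50.3 and 44.4, and Eif2ak3, the endoplasmic reticulum stress kinase PERK, had 36.1, 33.2, 33.2 and 19.5. Neither of these was called, and all of their intervals included 0.

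Of the 2 factors at subunit joining, Eif6, which keeps the large subunit apart until it is mature, was called higher in the tumor without exercise at 1.30 (1.13 to 1.48), with 417 without and 565 with exercise in healthy mice, and 1028 without and 721 with exercise in tumor-bearing mice. Eif5b, the GTPase that joins the subunits, had 4840, 4877, 7863 and 8061, which is 0.70 and 0.72 in the tumor comparisons. Eif5a, the hypusine-carrying factor that helps ribosomes through proline stretches, had 2582, 2944, 4897 and 3752 and took 99.2% to 99.7% of the reads of its pair with Eif5a2.

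In elongation, the kinase of eEF2 was called lower in the tumor without exercise, and eEF2 itself was called higher in the tumor with exercise. Eef2, which moves the ribosome along by 1 codon, had a normalized read count of 12863 and 8282 in healthy mice without and with exercise, and 24271 and 19796 in tumor-bearing mice without and with it. It was highest in both tumor libraries, with log2 differences of 0.92 (0.88 to 0.95) without exercise and 1.26 (1.22 to 1.29), which is a call, with exercise. Eef2k, the kinase that inactivates eEF2, had 480, 488, 182 and 414. Cancer control alone was low, and the other 3 libraries lay close together. Its difference was −1.39 (−1.66 to −1.14) for the tumor without exercise and 1.18 (0.92 to 1.45) for exercise in tumor-bearing mice, and both calls rest on the cancer control library. The tumor comparison with exercise gave −0.24 (−0.43 to −0.05). Eef2kmt, a lysine methyltransferase of eEF2, lay at 0.98 and 0.48 in the tumor comparisons.

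eEF1A, the carrier of aminoacyl-tRNA, is made from Eef1a1 in most tissues and from Eef1a2 in mature muscle and neurons. Eef1a2 had 6993 without and 5820 with exercise in healthy mice, and 12059 without and 11803 with exercise in tumor-bearing mice, and Eef1a1 had 7086, 6422, 9026 and 9377. Both were higher in the tumor libraries, Eef1a2 by 0.79 (0.74 to 0.83) and 1.02 (0.98 to 1.06) and Eef1a1 by 0.35 (0.30 to 0.40) and 0.55 (0.50 to 0.59). The call of Eef1a2 with exercise became 0.86 under scaling by total reads. Eef1a1 took 50.3% (49.5 to 51.2) and 52.5% (51.7 to 53.3) of the reads of the pair in healthy mice, and 42.8% (42.1 to 43.5) and 44.3% (43.6 to 45.0) in tumor-bearing mice. By these reads the muscle form held the larger part in both tumor libraries. However, 19.5% of the read-length stretches at the end of Eef1a1 are found in other genes, and none of those of Eef1a2. The handling of multi-mapping reads was not stated, so which form was the larger is uncertain. The exchange subunits Eef1b2, Eef1d and Eef1g lay between 0.18 and 0.59 in the tumor comparisons. Eef1e1, a component of the tRNA synthetase complex rather than an exchange factor, lay at −0.98 and −0.88.

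**Figure D4:**
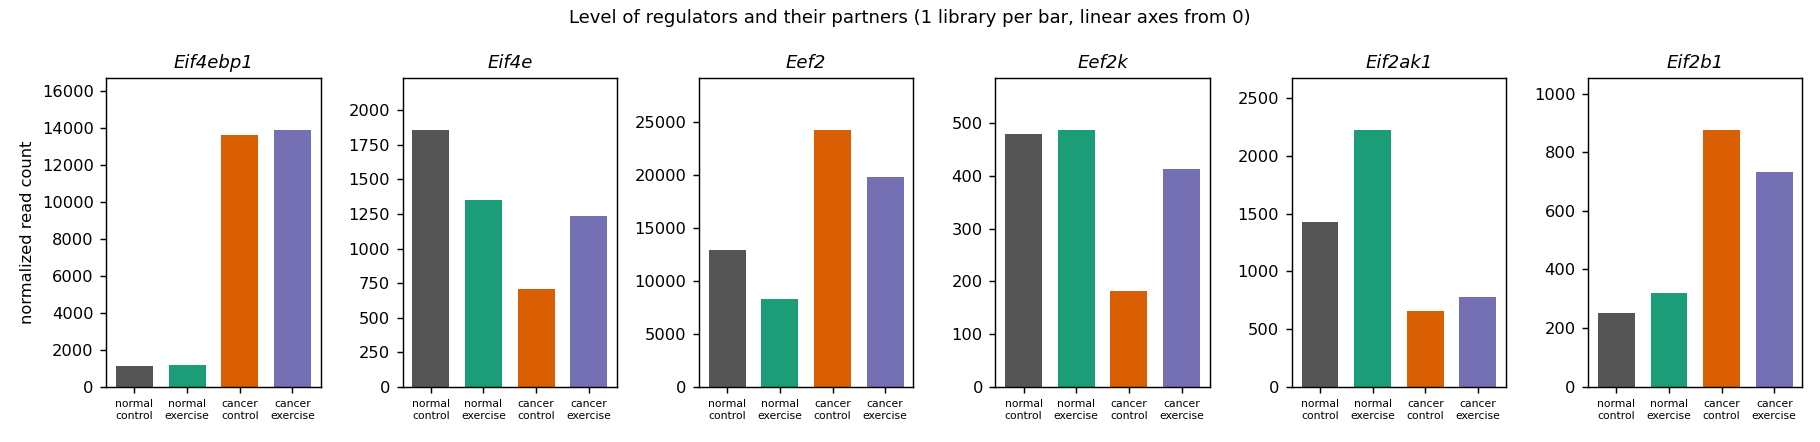
Normalized read count of 6 members in the 4 libraries, on linear axes from 0 with 1 bar per library and no replicate. Eif4ebp1 is at 1107 and 1188 without a tumor and at 13596 and 13891 with one, Eif4e and Eef2k are lowest in cancer control at 707 and 182, and Eef2, Eif2ak1 and Eif2b1 separate the tumor libraries from the others.

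For single members the exercise difference was unlike between the healthy and the tumor-bearing libraries, which no replicate allows to be tested. Subtracting the log2 exercise difference of the healthy from that of the tumor-bearing mice gave 1.27 for Eif4e, 1.15 for Eef2k and 1.13 for Eif2a. At the other end were −1.69 for Eif2ak4, −1.34 for Eif1a, −1.28 for Eif1, −1.14 for Eif2s3y, −1.13 for Eif3g and −1.01 for Eif4a3. The value of Eif4ebp1 was −0.07.

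**Figure D5:**
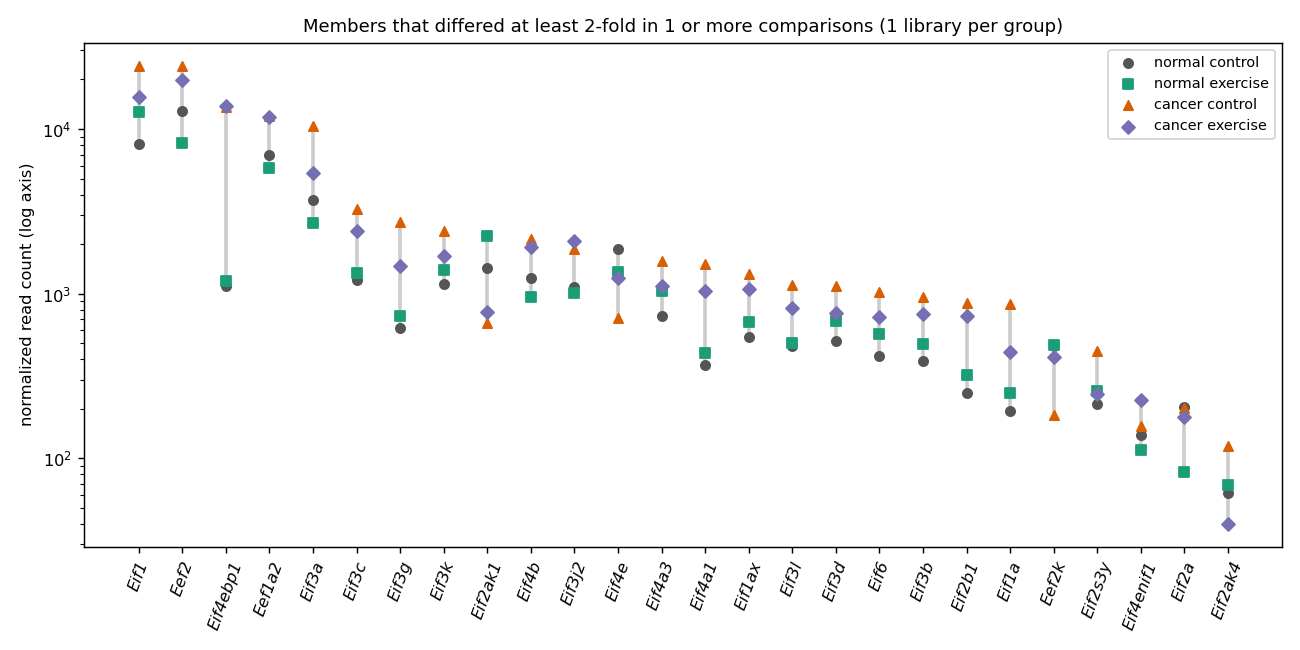
Normalized read count, on a log axis, of 26 members, those called in any comparison that reached 16 in some library, ordered by the level in their highest library. Each symbol is 1 library and the grey line spans the 4 libraries. Cancer control is the highest point for most genes, while Eif2ak1, Eif4e and Eef2k have it lowest.

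The 11 members with an E-box in the window of at least 1 start site did not all differ in the same direction. In the tumor without exercise 2 of the 11 were called higher and 2 lower, with a median of 0.55, beside 25.4% and 6.35% of all members and 20.9% and 24.2% of all genes. The ETS letters CCGGAAG, searched on both strands like the others, were in 12 members (24.0%) beside 7.83% of all genes, or 18.5% of the windows of members beside 6.91%, and 5 of these 12 were called higher and none lower, with a median of 0.91. CCAAT was in 15 members (30.0%) beside 37.5%. TGATGNAAN, the composite element read by ATF4, was in 2 members (4.00%) beside 3.89%, namely Eif2s3x and Eef2k, where it lay before another start site and not in the window printed above. A motif match describes the letters of the window and is not a binding site.

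Single upstream regulators of these factors differed by more than any member. On a list of mTORC1 and other regulators, 25 genes met the minimum. Of these, 9 were called higher and 3 lower in the tumor without exercise, beside 20.9% and 24.2% of all genes, with a median of 0.43. With exercise 6 were higher and 1 lower, beside 13.9% and 16.3%. Ddit4 (REDD1), an inhibitor of mTORC1, had 360 and 380 in healthy mice without and with exercise, and 17486 and 7874 in tumor-bearing mice without and with it. Sesn1, a sestrin that also restrains mTORC1, had 140, 132, 3627 and 1312, and the tumor differences without exercise were 5.60 for Ddit4 and 4.68 for Sesn1. Ppp1r15a (GADD34), which directs the phosphatase of eIF2 alpha, had 129, 118, 2194 and 535. All 3 were near their control level with exercise in healthy mice and lower in cancer exercise than in cancer control, by −1.15, −1.47 and −2.03 on the log2 scale. Dph1, which begins the diphthamide modification of eEF2, had 9.62, 21.8, 58.8 and 47.6 and was the 1 regulator called higher with exercise in healthy mice, at 1.10.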

How the data were processed

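QuantSeq 3′ mRNA sequencing was done on 4 gastrocnemius libraries, grouped by sample title, 1 per group. The authors used Bowtie2 for alignment, bedtools for counts per gene, and then quantile normalization with edgeR, while per the labels the build was mm10. Tool versions, annotation and the handling of strand and of multi-mapping reads are not given in the sources used here. Each deposited value is a log2 of 1 plus the normalized read count.

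The reads behind them were rebuilt by fitting the negative binomial quantile adjustment (dispersion 0.339), after which 100.0% of the values lay within 0.0006 log2 of a whole read count. A single count was fixed for 93.8% to 95.5% of the values, depending on the library. The rest, mostly of abundant genes, are approximate. A floor of 3 reads was 2.27e-05% to 2.82e-05% of a library. The methods state no molecular identifiers, so counting error is all that intervals and floors cover.

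Differences are between deposited log2 values, with a pseudocount of 1 that understates changes of low genes. A call needed 2-fold and a normalized read count of 4, the limits in the methods. Here the count had to be reached in at least 1 of the libraries compared, which the methods do not state. The rule called 3121 and 4437 genes for exercise in healthy and tumor-bearing mice, more than the study reported for these comparisons. Intervals of log2 differences were derived from 95% Clopper-Pearson limits on the share of reads. No test was run. With 1 library per group there is no spread within a group, and an additive fit of exercise and tumor, which would leave 1 residual degree of freedom, was not made. The members and lists were chosen with earlier results of these data known. Named are the called members that reached a normalized read count of 16, the paralogue sets, the central member of each role, and up to 4 genes of each other list. The calculation was tested on simulated data. Positions are from RefSeq on GRCm38.p6, and transcript ends were compared over their last 500 bases in stretches of 75. For 12 members another gene lies over these bases, namely Eef1a1, Eef1d, Eef2kmt, Eif2ak1, Eif2s2, Eif3j1, Eif3m, Eif4a2, Eif4e3, Eif4ebp3, Eif4enif1 and Eif5b. Stretches shared with another gene were found for 12 members, of which Eif3j2 and Eif4ebp3 share most of theirs. Alternatives covered scaling, pseudocount, minimum, fold and the source of the reads. Python 3.11.15, numpy 2.4.6, scipy 1.17.1 and matplotlib 3.10.9 were used.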

Additional observations from a re-analysis of the deposited data

How the results depend on the processing

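No paired analysis was possible because the labels give no replicate numbers and each group is 1 library, and for the same reason no library could be left out. There were 322 alternatives. Of these, 33 of 44 counts of called members stayed within 1.5 times of the reported one. Of the medians 30 of 32 moved by less than their limit, as did 179 values of named members, against 11 that moved further. No median and no named value turned its direction. The 56 paralogue shares from deposited values matched those from reads by construction, because the reads were rebuilt from these values. They are no check of the shares. Scaling by total reads took the median to 0.30 in healthy mice and to 0.20 in the tumor with exercise, and the calls to 4 for exercise in tumor-bearing mice and to 7 for the tumor with exercise. A fold of 1.5 gave 11, 42, 12 and 28 called members for exercise in healthy mice, the tumor without exercise, exercise in tumor-bearing mice and the tumor with exercise, and a fold of 4 gave 5, 0 and 2 in the latter 3, by construction of the line. In healthy mice a minimum of 16, or of 4 in both libraries, left 1 call, Eif2a. Depth limits Eif3j1, Eif4e1b, Eif5a2, Eif2ak2 and Eif2ak3, whose intervals are wide. The absence of replicates limits every value here, because the spread between mice is unknown.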

Other observations

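Other genes of the translation machinery were counted in the same way, beside 20.9% of all genes called higher and 24.2% lower in the tumor without exercise, 13.9% and 16.3% in the tumor with exercise, and 15.6% and 15.1% for exercise in tumor-bearing mice. Of 22 genes on the tRNA synthetase list, 7 were called higher and 2 lower in the tumor without exercise, with a median log2 difference of 0.35. With exercise 3 were higher and 1 lower. The lower calls include the scaffold Aimp2, at −2.31 without and −1.89 with exercise. Its reads cannot be told apart from those of Eif2ak1 without strand. Vars, the valine enzyme, had 96.8 without and 170 with exercise in healthy mice, and 639 without and 459 with exercise in tumor-bearing mice, and Eprs, the enzyme for glutamate and proline, had 1564, 1538, 4776 and 4207. Mars, the methionine enzyme, had 699, 1140, 1732 and 1189. Of the 9 mitochondrial translation factors 2 were lower and none higher in the tumor without exercise, near the share of all genes called lower, and the median of −0.08 was near the −0.04 of all genes. For exercise in tumor-bearing mice all 9 lay above 0, with 2 called higher and a median of 0.45 beside 0.01. Mtif2, the mitochondrial initiation factor, had 351, 403, 102 and 222, and Tsfm, an elongation factor, had 109, 138, 45.0 and 109, so both were lowest in cancer control. Mtrf1l had 155, 151, 82.5 and 84.5, and Mrrf had 245, 147, 186 and 273.

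Of 9 termination and recycling genes 2 were higher and 1 lower in the tumor without exercise. Etf1, the release factor eRF1, had 956, 1417, 2156 and 2294, Abce1, the recycling ATPase, had 668, 655, 1362 and 1048, and Gspt2 had 25.5, 15.3, 11.8 and 23.8. Among 6 poly(A)-binding proteins and their partners, Pabpc4 was called lower in the tumor without exercise at −1.16 and higher with exercise in tumor-bearing mice at 1.04, with 603, 523, 270 and 558. Pabpc1 had 1874, 1626, 2973 and 2577, and its inhibitor Paip2 had 2248, 2279, 1270 and 1803. Paip2b, the paralogue of Paip2, went the other way, with 302, 222, 559 and 361, or 0.88 and 0.70 in the tumor comparisons. None of these differences has a replicate.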
